A study of Sus scrofa with 12 samples.

Results

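The genes described are the 5 YTH domain readers of N6-methyladenosine (m6A), a methylated adenosine found inside many mRNAs. They are YTHDF1, YTHDF2, YTHDF3, YTHDC1 and YTHDC2, taken by gene symbol from the deposited tables. They are 5 of 20889 genes in the deposited FPKM table, and 14 of 25055 merged peaks of the MeRIP-seq assay lie on them. MeRIP-seq compares RNA fragments pulled down with an antibody against m6A with fragments of the same RNA that were not selected.

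YTH proteins hold the methylated base in an aromatic pocket of the YTH domain and so link m6A to the fate of the RNA. YTHDF1, YTHDF2 and YTHDF3 are close paralogs of the cytoplasm. YTHDF2 is best known for bringing the CCR4-NOT deadenylase to its targets, YTHDF1 has been tied to translation, and YTHDF3 to both. YTHDC1 is the nuclear member and acts in splicing and export. YTHDC2 is an RNA helicase known above all for its part in meiosis of germ cells. In the intestinal epithelium, YTHDF1 has been linked to Wnt signalling in stem cells. The mRNAs of these readers can carry m6A themselves, and it is those mRNAs, not the proteins, that were measured.

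The cells were IPEC-J2, a line of wild-type genotype from the pig small intestine, grown in DMEM/F12 with serum and antibiotics. They received 0 µM (called CON) or 25 µM (called OAA) of the compound OAA for 24 h. Each treatment had 3 numbered replicates with 1 library of each kind, labelled input or labelled IP, so that 12 libraries form 4 groups of 3. The series title names 2-oxindole-3-acetic acid, the proteasome subunit PSMD3 and the removal of ubiquitin from the YTHDF2 protein, and neither protein nor ubiquitin was measured in these files. The labels do not say whether replicates were separate cultures, and the spread behind each p-value here is therefore that of these libraries alone and may be technical.

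Reads in merged peaks numbered 16491095 to 23010413 per library labelled input and 3709352 to 4607452 per library labelled IP. The 14 YTH peaks held 0.227% to 0.240% of them under the first label and 0.128% to 0.152% under the other. It is not settled which label names the antibody-bound RNA, and the deposited values point the other way from the labels. Taken at their word, the labels give the antibody-bound RNA fewer reads in nearly all peaks. The authors' deposited log2 ratio had a median of 3.97 in CON and 4.04 in OAA. Of 24931 peaks with reads, those with more reads under the label input made up 98.3% (CON) and 97.3% (OAA), and the log2 ratio in the authors' deposited table was above 0 in 99.9% and 99.8% of peaks. The peak ratio used here has the same direction as that table. It is the log2 of the counts labelled input divided by those labelled IP, and turning it would change every sign. Of the epithelial markers, 9 of 10 are in the FPKM table, all 9 at 1 FPKM or more, with KRT8 the highest at 396 FPKM and summed levels of 1117 to 1212 in CON and 1041 to 1155 in OAA. Of 5 enterocyte markers in the table, 2 reached 1 FPKM (SI, 12.8). Fibroblast markers were all below 1 FPKM (0 of 6, with DCN and LUM at 0). Of 5 leukocyte markers, 2 reached 1 FPKM (LYZ the highest, 27.4), although PTPRC was at 0. Of the endothelial markers, 3 of 4 were above 1 FPKM (CDH5, 3.78). In the FPKM table the third OAA library was the highest of its group for 4 of the 5 YTH genes. FPKM differences and the calls for peak counts under each label are given with and without it. Correlations across libraries are given only with it.

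The merged peaks lay on 4 of the 5 genes, and in each YTHDF gene a single peak in the coding sequence held most of the peak reads. YTHDF1 and YTHDF2 have 4 peaks each and YTHDF3 and YTHDC1 have 3 each, where genes with a peak of their own have a median of 2. Of those 9325 genes, 33.0% have 3 or more. YTHDC2 has no listed peak. That was also so for 13.5% of the 10763 genes with at least 1 FPKM in 3 libraries, and for 12.5% of the 2029 of them with a mean of 5 to under 10 FPKM, the range of YTHDC2. None of the 14 peaks is shared with another listed gene. Positions are those of the authors' files, whose genome build is not given in the sources used here, and peaks are numbered from the 5′ end of each gene.

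YTHDF1 (ENSSSCG00000040086) is listed on the minus strand of chromosome 17 from 62329302 to 62341509. Its peak 1 is at chr17:62341107-62341406 over the start codon and spans 300 bp. Peak 2 at chr17:62334493-62335442 spans 950 bp of coding sequence, and peak 3 at chr17:62334018-62334392 spans 375 bp of coding sequence. Peak 4 at chr17:62330277-62333263 covers the stop codon and spans 2987 bp. The gap to the nearest listed gene, NKAIN4, is 14912 bp.

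YTHDF2 (ENSSSCG00000027686) is listed on the plus strand of chromosome 6 from 85718029 to 85751583. Peak 1 at chr6:85716967-85718090 spans 1124 bp of 5′ UTR and start codon, and 1062 bp of it lie before the listed start of the gene. The nearest listed gene on that side, GMEB1, ends 15970 bp away. Peak 2 at chr6:85722321-85722720 spans 400 bp of coding sequence. Peak 3 at chr6:85722846-85723795 spans 950 bp of coding sequence, the same span as peak 2 of YTHDF1. Peak 4 at chr6:85746569-85746793 covers the stop codon and 3′ UTR within 225 bp.

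YTHDF3 (ENSSSCG00000033144) is listed on the minus strand of chromosome 4 from 70887103 to 70928803. Peak 1 at chr4:70926571-70928794 spans 2224 bp assigned to the 5′ UTR. Peak 2 at chr4:70910095-70911744 spans 1650 bp of start codon and coding sequence. Peak 3 at chr4:70889803-70907269 is a stop codon peak that spans 17467 bp. Peaks are given by their outer ends, and the parts between exons are not listed apart.

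YTHDC1 (ENSSSCG00000035505) is listed on the plus strand of chromosome 8 from 66086523 to 66122709. Peak 1 at chr8:66086565-66097856 is assigned to the start codon and spans 11292 bp. Peak 2 at chr8:66098818-66104477 spans 5660 bp and is assigned to the coding sequence. Peak 3 at chr8:66121780-66122004 covers the stop codon within 225 bp. YTHDC2 (ENSSSCG00000014211) has FPKM values alone.

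**Figure D1:**
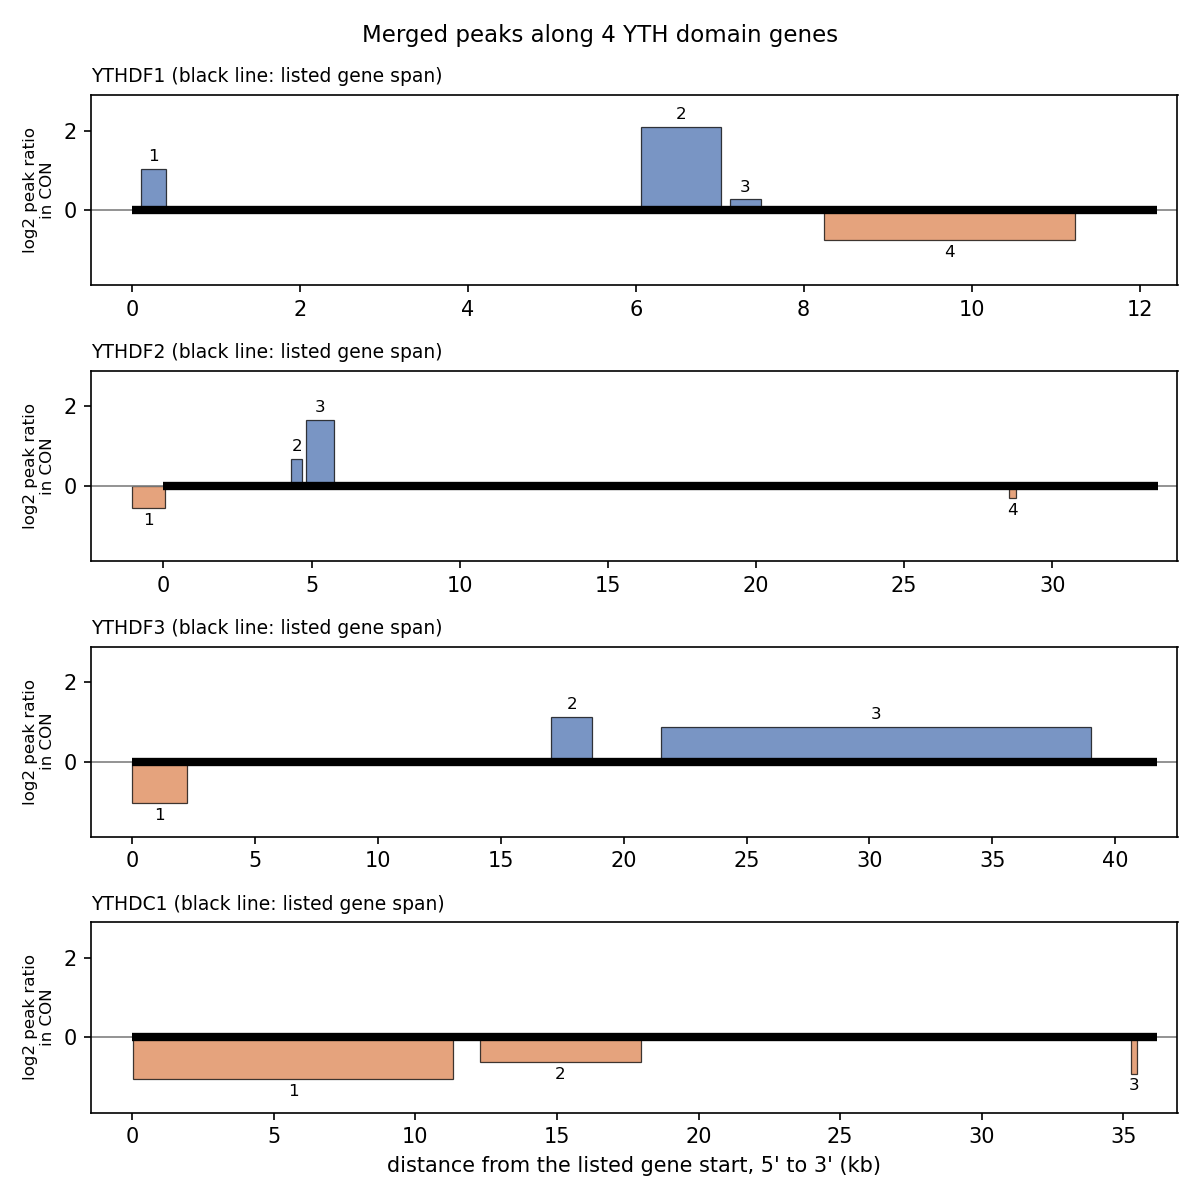
Merged peaks of the 4 YTH genes that have them, by distance in kb from the listed gene start (x axis) and log2 peak ratio in CON, labelled input over labelled IP (y axis); each box spans 1 numbered peak, blue above 0 and orange below 0, and the black line is the listed gene. The highest boxes of YTHDF1 (2.10), YTHDF2 (1.66) and YTHDF3 (1.12) are coding sequence peaks, and all 3 boxes of YTHDC1 are below 0.

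All 5 readers had FPKM above 0 in every library, and their order was the same in both treatments. FPKM are fragments counted per kilobase of gene and scaled to the depth of the library, so that levels can be compared between genes. The 6 libraries with FPKM are those labelled IP. If that label names the antibody-bound RNA, these values are levels of m6A-selected fragments and not of expression, and the order of the genes and the differences below are then those of the selected RNA. They measure whole cultures, in which fewer cells of a kind and less RNA per cell cannot be told apart. YTHDF3 ranked highest, followed by YTHDC1, YTHDF2, YTHDF1 and YTHDC2, and the ranges of neighbours in this order over the 6 libraries did not overlap. They were 50.9 to 57.9 for YTHDF3, 33.0 to 41.6 for YTHDC1, 26.5 to 32.1 for YTHDF2, 12.3 to 14.5 for YTHDF1 and 6.21 to 8.92 FPKM for YTHDC2. By mean FPKM, YTHDF3 was above 88.4% of the 10763 tested genes, YTHDC1 above 81.9%, YTHDF2 above 76.4%, YTHDF1 above 56.0% and YTHDC2 above 38.2%.

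YTHDF2, the decay reader named in the series title, measured 29.3, 32.1 and 28.0 FPKM in CON and 26.9, 26.5 and 28.2 FPKM in OAA. The means were 29.8 ± 2.11 and 27.2 ± 0.887 (SD, n = 3 each). A pair of CON libraries lay above all OAA libraries and the lowest CON library fell between OAA values, so the groups overlapped. On the scale of log2(FPKM + 1) the difference was -0.12 (95% interval -0.27 to 0.02), which did not pass the test (limma, adjusted p of 1.00, unadjusted p of 0.0836).

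YTHDF3 measured 56.4, 56.7 and 56.3 FPKM in CON and 51.1, 50.9 and 57.9 FPKM in OAA, with means of 56.5 ± 0.199 and 53.3 ± 3.98 (SD, n = 3 each). The CON libraries were nearly equal, while the OAA libraries lay on both sides of them. The log2 difference was -0.08 (95% interval -0.22 to 0.05).

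YTHDF1 measured 13.2, 13.0 and 14.4 FPKM in CON and 14.5, 13.0 and 12.3 FPKM in OAA, with means of 13.5 ± 0.756 and 13.3 ± 1.14 (SD, n = 3 each). The OAA group holds both the highest and the lowest library. The log2 difference was -0.03 (95% interval -0.20 to 0.14).

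YTHDC1, the nuclear reader, measured 37.7, 36.1 and 36.1 FPKM in CON and 33.0, 34.6 and 41.6 FPKM in OAA, with means of 36.6 ± 0.960 and 36.4 ± 4.59 (SD, n = 3 each). As for YTHDF3, OAA libraries lay on both sides of a narrow CON group. The log2 difference was -0.01 (95% interval -0.20 to 0.17). The helicase YTHDC2 measured 7.51, 7.93 and 7.86 FPKM in CON and 6.21, 6.74 and 8.92 FPKM in OAA, with means of 7.77 ± 0.226 and 7.29 ± 1.44 (SD, n = 3 each). Its OAA libraries again lay below and above all CON libraries. The log2 difference was -0.09 (95% interval -0.34 to 0.16).

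**Figure D2:**
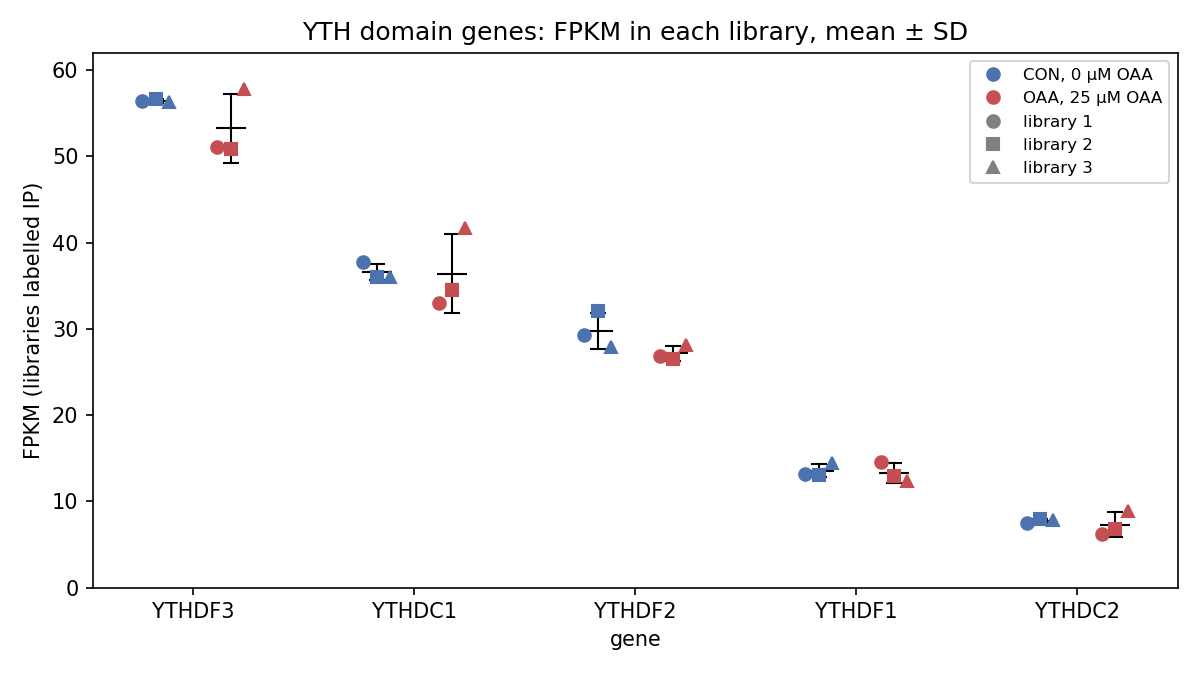
FPKM of the 5 YTH domain genes (y axis) in each of the 6 libraries labelled IP; circles, squares and triangles are libraries 1, 2 and 3, blue CON and red OAA, and the bars give mean ± SD of 3. The order of the genes is the same in both treatments, and the OAA triangle lies above the other OAA points in 4 of the 5 genes.

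None of the 5 genes passed the test between treatments at an adjusted p under 0.05 in limma, and none had an unadjusted p under 0.05. Over all 10763 genes the calls were 0 (0%) after adjustment and 356 (3.31%) at an unadjusted p under 0.05. All 5 estimates were below 0, with a median of -0.08 against -0.01 over all genes tested. The levels of YTHDF3, YTHDC1 and YTHDC2 went closely together, so the signs are not independent and nothing is read from their number. CON and OAA did not overlap in 8.55% of all genes and overlapped in each of the 5.

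The third OAA library carried much of the spread of this group. Relative to the CON mean on the log2(FPKM + 1) scale it was 0.18 higher for YTHDC1, 0.18 for YTHDC2 and 0.04 for YTHDF3, and stood at -0.07 for YTHDF2 and -0.12 for YTHDF1. It was the highest OAA library for 4 of the 5 genes and for 36.1% of all genes tested. Without it the differences were -0.15 for YTHDF2, -0.14 for YTHDF3, -0.11 for YTHDC1, -0.23 for YTHDC2 and 0.02 for YTHDF1. Unadjusted p was then under 0.05 for YTHDF2 (0.0354), YTHDF3 (0.00316), YTHDC1 (0.0353) and YTHDC2 (0.0104), as for 1763 of 10706 genes, and limma's adjusted p values of these 4 were 0.142 to 0.272. YTHDF1 alone changed sign. Without the first OAA library the estimates of YTHDC1 (0.05) and YTHDC2 (0.000061) were above 0.

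Across the 6 libraries, YTHDF3, YTHDC1 and YTHDC2 were the members whose levels went most closely together. As a description, Pearson's r of log2(FPKM + 1) was 0.93 between YTHDF3 and YTHDC2, 0.91 between YTHDC1 and YTHDC2 and 0.82 between YTHDF3 and YTHDC1, and from -0.71 to -0.30 between YTHDF1 and each of the other 4. With 6 points that share the treatments and the third OAA library, high values are common: 446 of 10213 tested genes with a symbol had r above 0.9 with YTHDF3, 444 with YTHDC1, 457 with YTHDC2, 152 with YTHDF1 and 60 with YTHDF2. The closest genes were REEP3 (0.997), PHLDB2 (0.993) and FAM111A (0.993) for YTHDF3, and Anp32e (0.990), CACNA2D1 (0.989) and PTGES3 (0.989) for YTHDC1. They were NPAT (0.998), CHUK (0.998) and ETNK1 (0.994) for YTHDC2, NDRG1 (0.991), GIGYF1 (0.990) and PGPEP1 (0.987) for YTHDF1, and ANKRD33B (0.978), FIZ1 (0.973) and ENTPD5 (0.973) for YTHDF2.

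Taken as labelled input over labelled IP, the peak ratio was highest in the coding sequence of the 3 YTHDF mRNAs and below 0 across YTHDC1. Turned to labelled IP over labelled input, the order is the reverse, with the main peaks at -2.10 in YTHDF1, -1.66 in YTHDF2, -1.12 in YTHDF3 and 0.62 in YTHDC1. A main peak was chosen by its reads over all libraries, and most of these reads carry the label input. The choice thus favours a high ratio in this direction, and the ranks of main peaks below are not corrected for it. Counts were scaled with edgeR's TMM method, which sets the typical peak near 0, so a ratio says whether a peak stood higher or lower in the labelled input than most peaks. In CON, 12 of the 14 peaks passed edgeR's quasi-likelihood test at an adjusted p under 0.05, 6 of them above 0 and 6 below. Over all 24145 tested peaks 68.1% were called, 33.9% above 0 and 34.2% below, so most peaks of any gene are called and nothing is read from the count of YTH peaks alone. With scaling by library size alone the calls over all peaks were 6516 above 0 and 10068 below in CON, against 8181 and 8250, and 6729 and 9892 in OAA, against 8237 and 8295. The median of all peaks then moved from 0.03 to -0.28 in CON and from 0.03 to -0.24 in OAA. The median of the 14 YTH peaks in CON was -0.03, and the middle of all peaks ran from -0.89 to 1.06 (quartiles).

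For YTHDF1, the translation-linked reader, peak 2 in CON held 7435, 5495 and 7125 reads under the label input against 376, 389 and 384 under the label IP. After scaling these were 363 ± 16.4 and 84.9 ± 7.52 CPM (counts scaled to library depth; SD, n = 3 each), with all labelled input libraries far above all labelled IP libraries. The log2 ratio was 2.10 (SE 0.08, adjusted p = 1.44e-20 in edgeR), above 91.8% of all peaks and 93.3% of the 5350 peaks wholly in coding sequence (with the ratio turned, above 8.17% and 6.73%). Peak 3, which lies beside it in the same coding sequence, was at 0.26 (SE 0.13, edgeR adjusted p = 0.0817), and the 95% intervals of both peaks (1.94 to 2.26 and -0.01 to 0.54) lay apart. The stop codon peak 4 was at -0.77 (SE 0.21), below the median of 0.61 for its position class, and 17.2% of the 3200 stop codon peaks were lower (82.8% with the ratio turned).

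For YTHDF2, peak 3 in CON held 10285, 8223 and 11241 reads under the label input against 740, 894 and 683 under the label IP. These were 538 ± 18.7 and 170 ± 7.79 CPM (SD, n = 3 each), again without overlap. The log2 ratio was 1.66 (SE 0.07, adjusted p = 5.43e-19 in edgeR), above 86.1% of all peaks and 88.4% of coding sequence peaks (turned, above 13.9% and 11.6%). Its neighbour upstream, peak 2, was at 0.68 (SE 0.10), and the stop codon and 3′ UTR peak 4 was at -0.32 (SE 0.15, edgeR adjusted p = 0.0620). Of the 1432 peaks in the position class of peak 4, with a median of -0.25, 48.3% were lower (51.7% with the ratio turned).

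For YTHDF3, peak 2 in CON held 21741, 17825 and 23689 reads under the label input against 2355, 2587 and 2209 under the label IP. Summed over all 12 libraries it had more reads than 99.7% of tested peaks, and YTHDF3 also had the highest FPKM of the 5 genes. The log2 ratio was 1.12 (SE 0.06, adjusted p = 2.23e-16 in edgeR), above 76.3% of all peaks (turned, above 23.7%). Unlike in YTHDF1 and YTHDF2, the stop codon peak of YTHDF3 was also above 0, at 0.87 (SE 0.09). The 5′ UTR peak 1 was at -1.05 (SE 0.17), and 10.6% of the 1383 peaks wholly in the 5′ UTR were lower (89.3% with the ratio turned).

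For YTHDC1, the coding sequence peak 2 in CON held 1031, 865 and 1181 reads under the label input against 437, 403 and 323 under the label IP. These were 55.7 ± 3.40 and 85.5 ± 10.7 CPM (SD, n = 3 each), so the labelled IP libraries were the higher ones only after scaling. In the authors' deposited table, on a scale not centred on the typical peak, the log2 ratio of this peak was 3.28 in CON. The log2 ratio was -0.62 (SE 0.12, adjusted p = 2.08e-05 in edgeR). Peak 1 was at -1.06 (SE 0.14) and the stop codon peak 3 at -0.92 (SE 0.13), above 14.1% of stop codon peaks (turned, above 85.9%).

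Coding sequence and stop codon peaks of the same gene can be set side by side. A coding peak here is the gene's most-read peak with coding sequence and no stop codon, so it may include the start codon. A stop codon peak is the most-read one with the stop codon, with or without coding sequence. Several position classes are thus pooled in each kind. Peak 2 of YTHDF1 stood 2.87 log2 units above that gene's stop codon peak in CON, and peak 3 of YTHDF2 stood 1.98 above its own. The same difference was 0.25 in YTHDF3 and 0.30 in YTHDC1. Among 2822 genes with both kinds of peak the median was -0.11 and the coding peak was the higher in 47.3%. YTHDF1 exceeded 97.3% of these genes, YTHDF2 91.5%, YTHDC1 61.2% and YTHDF3 59.7%. With the ratio turned the differences are -2.87, -1.98, -0.30 and -0.25, above 2.66%, 8.50%, 38.8% and 40.3% of the genes in the same order. This comparison was added after the values had been seen and is a description.

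**Figure D3:**
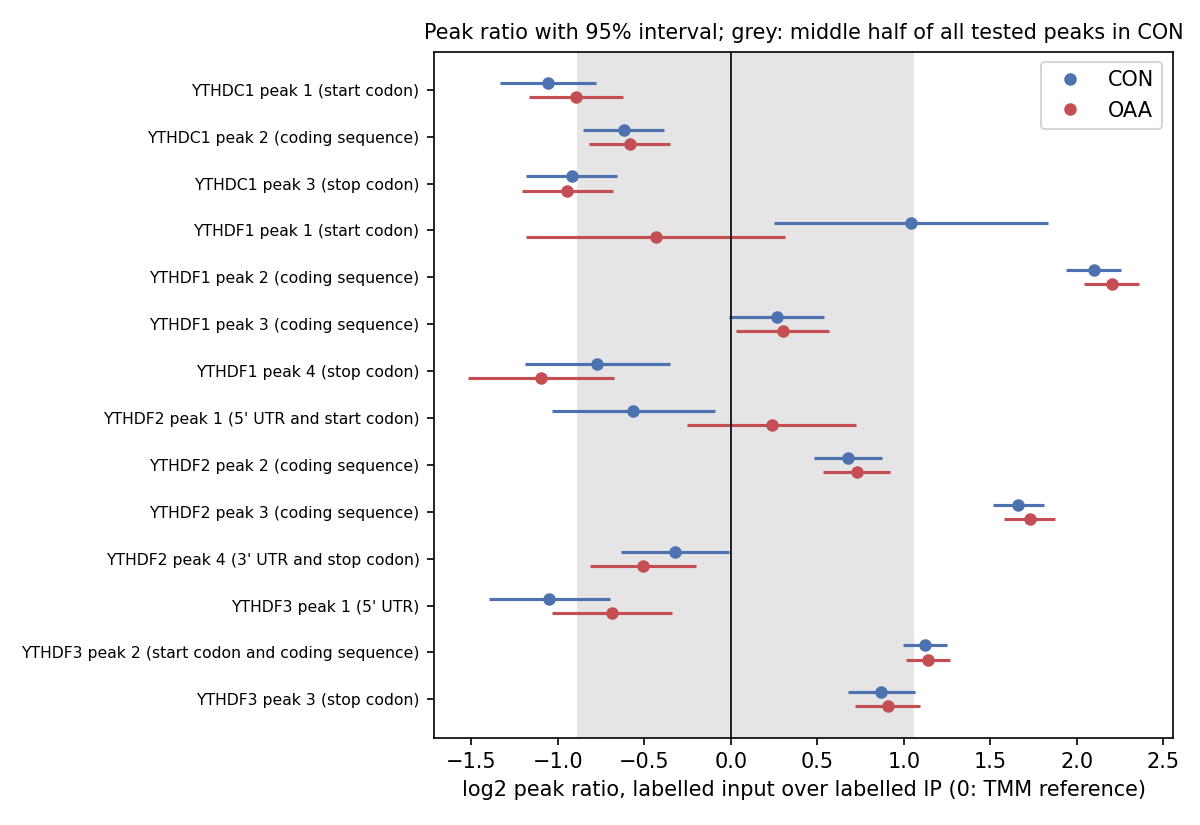
Log2 peak ratio of the 14 YTH peaks, labelled input over labelled IP (x axis), in CON (blue) and OAA (red) with 95% intervals; the grey band runs between the quartiles of all tested peaks in CON, -0.89 to 1.06. The blue and red estimates lie farthest apart in peak 1 of YTHDF1 (1.04 and -0.43) and peak 1 of YTHDF2 (-0.56 and 0.24).

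In OAA the ratio in this direction was again highest in the coding sequence of the YTHDF mRNAs. The test was passed by 12 of 14 peaks, 6 above 0 and 6 below, where 68.5% of all peaks were called (34.1% above 0 and 34.4% below). The main peaks were at 2.20 (SE 0.08) in YTHDF1, 1.73 (SE 0.07) in YTHDF2, 1.14 (SE 0.06) in YTHDF3 and -0.58 (SE 0.11) in YTHDC1. The coding peak stood 3.30 above the stop codon peak in YTHDF1 and 2.23 in YTHDF2. For 4 peaks the treatments fell on different sides of the threshold. Peak 3 of YTHDF1 (0.30, edgeR adjusted p = 0.0466) and peak 4 of YTHDF2 (-0.51, 0.00383) were called in OAA and not in CON. Peak 1 of YTHDF1 (adjusted p = 0.0184 in CON and 0.298 in OAA, edgeR) and peak 1 of YTHDF2 (0.0315 and 0.389) were called in CON and not in OAA. The difference between treatments itself, tested for each peak, is given next.

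Some of these calls rest on single replicates. In CON, peak 1 of YTHDF1 lost its call without replicate 1 (edgeR, adjusted p = 0.114) or 2 (0.0614) of CON, and peak 1 of YTHDF2 without replicate 2 (0.145) or 3 (0.160). Peak 4 of YTHDF2 gained one in CON without CON replicate 3 (0.0426). In OAA, peak 3 of YTHDF1 lost its call without CON replicate 2 (0.0572) or 3 (0.0632), or OAA replicate 1 (0.218) or 3 (0.0946), and peak 1 of YTHDF3 without OAA replicate 2 (0.0554). Scaling by library size ended the calls of peak 1 of YTHDF1 in CON (0.0896) and of its peak 3 in OAA (0.883), turned the estimate of that peak 3 in CON to -0.039, and gave peak 4 of YTHDF2 a call in CON. DESeq2 ended the call of peak 1 of YTHDF2 in CON (0.0705) and gave peak 3 of YTHDF1 one in CON (0.0215).

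No difference between the treatments beyond the spread of the replicates was found for the main peak of any YTH gene. For the change of the peak ratio, OAA minus CON, edgeR called 0 of the 14 YTH peaks and 0 of all 24145 (0%), with an unadjusted p under 0.05 in 2 YTH peaks and in 4.46% of all peaks. With both libraries of a replicate number as a block, 1 of all peaks was called and it was not a YTH peak. In the libraries labelled input, 0 of 14 were called, as were 0% of 24835 peaks, and 1 YTH peak had an unadjusted p under 0.05 (5.2% of all). In those labelled IP, 0 of 14 were called against 0.00498% of 20098 peaks, with 1 at an unadjusted p under 0.05 (3.88% of all). Without the third OAA library, 0 of 14 were called in the labelled IP, against 50 of 20550 peaks (0.243%), and 4 had an unadjusted p under 0.05 (8.71% of all). These were peak 1 of YTHDF2 (-0.80), its main peak (-0.18 against -0.13 with all libraries), the main peak of YTHDF3 (-0.13 against -0.07) and peak 3 of YTHDC1 (-0.30 against -0.07), with edgeR's adjusted p values from 0.212 to 0.439. In the labelled input, no YTH peak had an unadjusted p under 0.05 without that library. CON and OAA did not overlap in 1 YTH peak of the labelled input (11.1% of all peaks), which was lower in OAA (5.65% of all, with 5.41% higher). They did not overlap in 2 YTH peaks of the labelled IP (9.64%), 1 higher in OAA (5.42%) and 1 lower (4.22%).

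In YTHDF2, the main peak in OAA held 10495, 9680 and 8444 reads under the label input and 760, 749 and 804 under the label IP, or 518 ± 31.7 and 157 ± 9.41 CPM (SD, n = 3 each). In both labels the CON and OAA libraries overlapped in CPM. The estimated change was 0.06 for the ratio (95% interval -0.14 to 0.27), -0.05 for the labelled input (95% interval -0.17 to 0.08) and -0.13 for the labelled IP (95% interval -0.30 to 0.04). In the authors' deposited table the log2 ratio of this peak was 5.56 in CON and 5.69 in OAA, on a scale that is not centred on the typical peak.

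In YTHDF1, the main peak in OAA held 7379, 7063 and 6412 reads under the label input and 423, 399 and 394 under the label IP, which gave 378 ± 10.3 and 82.3 ± 1.33 CPM (SD, n = 3 each). The change of its ratio was 0.10 (95% interval -0.12 to 0.33), of the labelled input 0.06 (95% interval -0.06 to 0.19) and of the labelled IP -0.06 (95% interval -0.26 to 0.15). In YTHDF3, the main peak in OAA held 21373, 20280 and 19868 reads under the label input and 2371, 2461 and 2647 under the label IP. The estimate for its ratio was 0.02 (95% interval -0.16 to 0.20), the narrowest interval of the 4 main peaks. In YTHDC1, the main peak in OAA held 1169, 941 and 1024 reads under the label input and 378, 383 and 495 under the label IP. The estimate for its ratio was 0.04 (95% interval -0.30 to 0.37).

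The share of a gene's peak reads held by its main peak had differences, OAA minus CON, between -1.71 and 1.16 percentage points. In the labelled input it was 87.4% in CON and 88.6% in OAA for YTHDF1, 80.0% and 78.7% for YTHDF2, 84.8% and 83.5% for YTHDF3, and 42.2% and 42.4% for YTHDC1. In the labelled IP it was 62.3% and 61.6% for YTHDF1, 62.2% and 60.5% for YTHDF2, 79.9% and 79.0% for YTHDF3, and 36.4% and 36.8% for YTHDC1. Two-sided exact permutation tests of these 8 shares gave p from 0.2 to 0.9 (0.533 to 0.9 after Benjamini-Hochberg adjustment), where 3 against 3 libraries cannot go below 0.1.

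**Figure D4:**
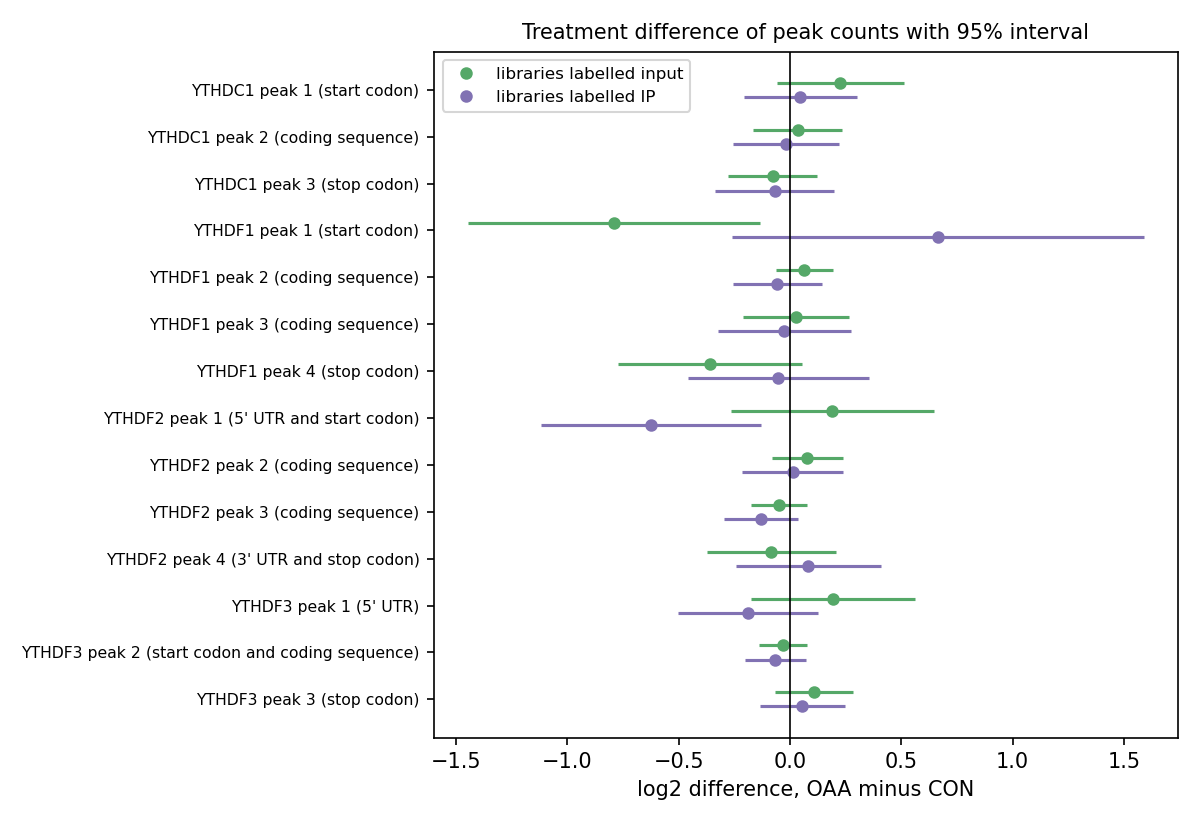
Log2 difference of peak counts, OAA minus CON (x axis), for the 14 YTH peaks in the libraries labelled input (green) and labelled IP (purple), with 95% intervals. The intervals include 0 except for peak 1 of YTHDF1 in the labelled input (-0.79) and peak 1 of YTHDF2 in the labelled IP (-0.63), and neither of these passed the adjusted test.

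The largest estimates among the 14 peaks were those of the peaks at the 5′ ends of YTHDF1 and YTHDF2, which are singled out here after their values were seen. Peak 1 of YTHDF1 is the thinnest of the 14, with more reads than only 20.2% of tested peaks. It held 77, 70 and 77 reads in CON and 48, 46 and 36 in OAA in the libraries labelled input, and all OAA libraries were below all CON libraries. In the libraries labelled IP it held 6, 12 and 9 reads in CON and 13, 18 and 16 in OAA, with all OAA libraries above all CON libraries. In CPM the labelled input was 4.10 ± 0.537 with CON and 2.35 ± 0.256 with OAA, and the labelled IP 1.97 ± 0.557 and 3.19 ± 0.557 (SD, n = 3 each).

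The ratio of this peak was 1.04 (SE 0.39) in CON and -0.43 (SE 0.37) in OAA, a change of -1.48 (95% interval -2.57 to -0.38) with an unadjusted p of 0.00972 and an adjusted p of 0.999 in edgeR. The estimate for the labelled input alone was -0.79 (95% interval -1.45 to -0.14, edgeR, unadjusted p of 0.0202, adjusted p of 0.940) and for the labelled IP 0.66 (95% interval -0.26 to 1.59, adjusted p = 0.998). Both labels without overlap and in opposite directions were found in 108 of 24145 peaks (0.447%). In the authors' deposited table the log2 ratios were 4.94 in CON and 3.53 in OAA, with a p-value of 0.0200 and an adjusted p-value of 1.00.

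Peak 1 of YTHDF2 had estimates of the opposite sign. It held 187, 110 and 148 reads in CON and 177, 122 and 201 in OAA in the libraries labelled input, where the groups overlapped. In the libraries labelled IP it held 50, 61 and 50 reads in CON and 37, 31 and 46 in OAA, with all OAA libraries below all CON libraries. In CPM the labelled IP was 11.8 ± 0.552 in CON and 7.74 ± 1.68 in OAA, and the labelled input 7.98 ± 1.24 and 9.11 ± 2.41 (SD, n = 3 each).

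The ratio of that peak was -0.56 (SE 0.23) in CON and 0.24 (SE 0.24) in OAA, a change of 0.80 (95% interval 0.12 to 1.48) with an unadjusted p of 0.0221 and an adjusted p of 0.999 in edgeR. The estimate for the labelled IP was -0.63 (95% interval -1.12 to -0.13, edgeR, unadjusted p of 0.0146, adjusted p of 0.998) and for the labelled input 0.19 (95% interval -0.27 to 0.65). In the authors' deposited table the log2 ratios were 3.30 in CON and 4.18 in OAA, with a p-value of 0.0173. That table has a p-value under 0.05 for these 2 of the 14 YTH peaks and for 2.69% of all 24931 peaks, and an adjusted p-value under 0.05 for 0 peaks. The unadjusted p of peak 1 of YTHDF1 in the labelled input was 0.0744 without CON replicate 2 and 0.0522 without OAA replicate 3, and that of peak 1 of YTHDF2 in the labelled IP was 0.0727 without OAA replicate 2 (edgeR). The change in YTHDF2 was above an unadjusted p of 0.05 without CON replicate 2 (0.0685) or 3 (0.0744) or OAA replicate 1 (0.0578) in edgeR.

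**Figure D5:**
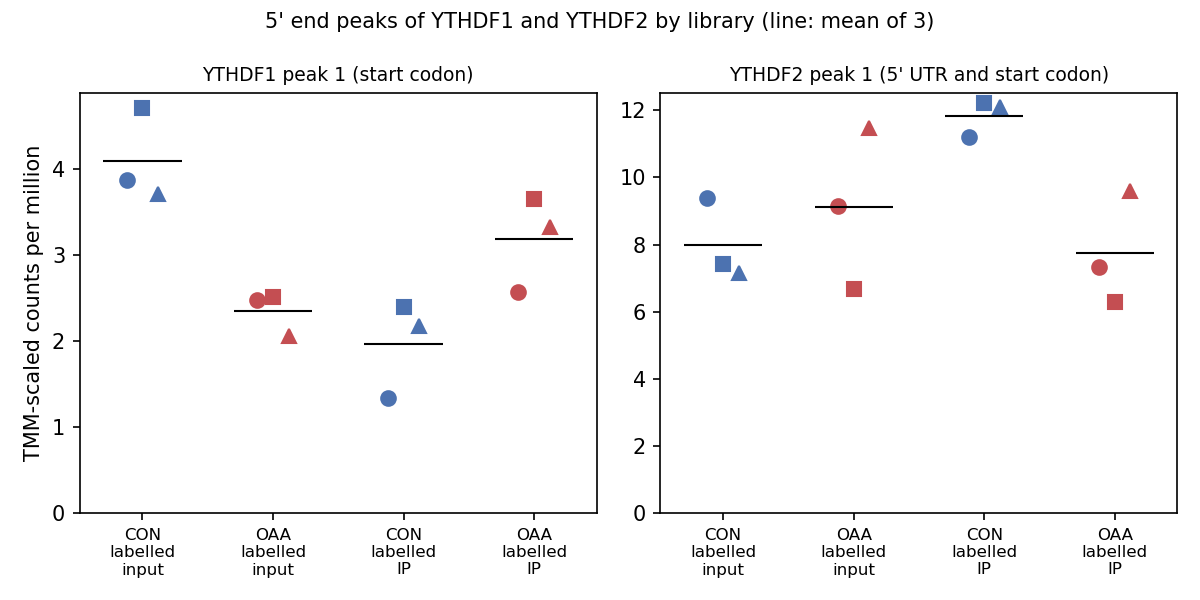
TMM-scaled CPM (y axis) of peak 1 of YTHDF1 (left) and of YTHDF2 (right) in each library of the 4 groups; circles, squares and triangles are replicates 1, 2 and 3, blue CON and red OAA, and lines are means of 3. For YTHDF1 the OAA points lie below CON in the labelled input (means 2.35 and 4.10) and above it in the labelled IP (3.19 and 1.97), and for YTHDF2 they lie below CON in the labelled IP (7.74 and 11.8).

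The remaining 8 YTH peaks had changes of the ratio between -0.33 in peak 4 of YTHDF1 and 0.37 in peak 1 of YTHDF3, and none had an unadjusted p under 0.05. Over all 14 peaks, 10 changes were above 0, with a median of 0.04 against -0.01 for all tested peaks. Nothing is read from the number above 0. Precision differed between peaks: the SE of the change was 0.09 for the main peak of YTHDF3 and 0.54 for peak 1 of YTHDF1, the peak with the fewest reads.

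No other gene of the m6A pathway lists was called in the treatment comparison. The writers, which methylate mRNA, were all 9 tested by FPKM and 0 were called, with a median of -0.02, and METTL3, the catalytic subunit, was at 0.10 with a CON mean of 7.31 ± 0.241 and an OAA mean of 7.90 ± 0.196 FPKM (SD, n = 3 each). Of the erasers, which remove the mark, FTO (0.11) and ALKBH5 (0.03) were not called. Neither were the 9 tested of 10 other readers, the 16 decay partners of YTHDF2, the 6 nuclear partners of YTHDC1, the 8 translation factors or the proteasome subunit PSMD3 (-0.02). Of the 4 partners listed for YTHDC2, the exonuclease XRN1 was the only one with enough FPKM to be tested (-0.15, not called), and the germ cell genes MEIOC, RBM46 and TDRD5 were not. No gene of these lists had an unadjusted p under 0.05 for FPKM.

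In the peak ratio of CON, 15 of 31 writer peaks were called above 0 and 7 below, where 33.9% of all peaks were called above 0 and 34.2% below (6516 above and 10068 below of 24145 when scaled by library size). The lists were not tested against these shares, and nothing is read from their counts. The highest of those named by the smallest p were in coding sequence of ZC3H13 (2.26, SE 0.12) and RBM15 (1.90, SE 0.07), both cofactors of the writer complex. The demethylase ALKBH5, like YTHDF1, had a coding peak far above 0 and a stop codon peak called below 0. Its start codon and coding peak was at 1.96 (SE 0.10) and its stop codon peak at -1.48 (SE 0.16). The stop codon peak of YTHDF2 (-0.32) was not called in CON. The decay partners, among them the CCR4-NOT subunit CNOT10 (-1.88, SE 0.14), had 7 of 33 peaks called above 0 and 17 below. The other readers had 3 of 19 above and 9 below, the translation factors 4 of 17 above and 11 below, the nuclear partners 4 of 10 each way, the erasers 2 of 3 above and 1 below, and PSMD3 both of its peaks below. No peak of these lists was called for the change of the ratio or for OAA against CON under either label. At an unadjusted p under 0.05 in edgeR were 1 of 31 writer peaks for the change and 4 of 31 in the labelled input. Decay partners had 2 and 1 of 33, nuclear partners 0 and 2 of 10, and translation factors 1 of 17 each. Other readers had 1 and 0 of 19, erasers 1 of 3 and 0 of 4, and PSMD3 0 of 2 each. In the labelled IP it was 1 of 25 decay partner peaks and 0 in the other lists. The shares over all peaks were 4.46% (change), 5.2% (input) and 3.88% (IP).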

How the data were processed

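The series holds 12 MeRIP-seq libraries of IPEC-J2 cells. Per the file headers, the authors deposited read counts of each library in merged peaks that are the same for all libraries, with columns for the log2 ratio in CON, in OAA and its difference. They also deposited a p-value for that difference, raw and adjusted, and -log10 of both, which were not used. The authors' other deposited table gives FPKM per gene for 6 libraries, whose codes belong to those labelled IP. The submitters' processing notes list Bowtie2 and HISAT2. The roles of both, the peak caller and the build of the genome are not stated in what was used here. The deposited log2 ratios and p-values are the authors' and were copied.

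Each library column was matched to its sample (0 left over). The 29011 entries of the peak table describe 25055 peaks, and a peak was used once. Since 717 peaks start 1 below their gene and 8 exactly with it, starts were read as 0-based and are printed 1-based. Groups follow the labels.

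Peak counts were tested with edgeR 4.0.16 (TMM, filterByExpr, quasi-likelihood F test) in R 4.3.3. The peak ratios and their change were fitted on all 12 libraries with 1 term per group, and OAA against CON on the 6 libraries of each label. FPKM were tested as log2(FPKM + 1) with limma 3.58.1 (trend), for genes that reached 1 FPKM in 3 libraries or more, a scale that understates differences of low genes. Called means a Benjamini-Hochberg adjusted p under 0.05 over all features tested, and intervals are 95%. Fits were also run on simulated data, and no result here rests on those runs. The simulated FPKM had 1 spread for all genes and no outlying library. CPM are counts scaled by TMM over all 12 libraries.

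All 5 YTH genes and all their peaks are described. Full values under treatment are given for the main peak, the one with the most reads, of each gene. From each pathway list at most the 3 members with the smallest p are named, with MEIOC, RBM46 and TDRD5 added because they could not be tested. The genes, lists and markers were chosen with earlier results of these data known.

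From the protocol, the 2 libraries of a replicate number in a treatment were taken to be parts of 1 RNA. The main fit of the ratios did not use this pairing, and among the alternatives only the replicate block did. Deviations from the group means of such pairs correlated at -0.04 to 0.04 in CON and 0.04 to 0.15 in OAA over 17556 peaks, so the data alone do not show the pairing. Alternatives were scaling by library size, DESeq2 1.42.0, no filter, a pseudocount of 0.1, quantile normalization, a replicate block and leaving out each replicate.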

Additional observations from a re-analysis of the deposited data

Results flagged for a closer look

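The change of the peak ratio in peak 1 of YTHDF1, over the start codon, stood out because the libraries of the 2 labels differed in opposite directions between the treatments, without overlap. The change was -1.48 (OAA minus CON, 95% interval -2.57 to -0.38), with an unadjusted p of 0.00972 and an adjusted p of 0.999 in edgeR's test of the difference itself. Over the alternatives the change lay between -1.65 and -1.31, below 0 in all of them, with adjusted p values of 0.889 to 1.00. The peak held 428 reads in all 12 libraries and 27 in the 3 CON libraries labelled IP. The result does not pass the correction for 24145 peaks.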

How the results depend on the processing

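No YTH gene or peak was called in a treatment comparison under any alternative that was run. With each replicate left out, 10 to 12 of 14 YTH peaks were called for the ratio in CON and 11 to 12 in OAA. They were not always the same peaks. Direction turned under scaling by library size for 2 peaks with small ratios, peak 3 of YTHDF1 in CON (-0.039) and peak 1 of YTHDF2 in OAA (-0.036). Calls that scaling by library size or DESeq2 ended or gave are listed with the ratios, and without the filter peak 3 of YTHDF1 in OAA also lost its call (edgeR, adjusted p of 0.0546). Over all features, the peaks called for the change of the ratio numbered 0 and became 1 with DESeq2 and 0 to 1 when a replicate was left out. For the labelled input the 0 became 2 with DESeq2 and 0 to 1 without a replicate. For the labelled IP the 1 became 0 under scaling by library size, 4 without the filter and 0 to 50 without a replicate, the 50 being without OAA replicate 3. Genes called by FPKM went from 0 to 1 without the filter. The causes were not tested.

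With the replicate number as a block, 1 peak was called for the change of the ratio, 1 for the labelled input and 4 for the labelled IP, none of them YTH peaks, and the block changed no other call of a YTH gene or peak. The data do not show that the numbers pair CON with OAA libraries, and correlations this weak cannot exclude it. Deviations of same-numbered libraries correlated at -0.11 to 0.02 in the labelled input, -0.12 to -0.02 in the labelled IP and -0.25 to -0.04 in FPKM.

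Estimates near 0 turned sign when single replicates were left out, none of them called. For the change of the ratio the range was -0.12 to 0.19 in the main peak of YTHDC1, -0.0026 to 0.18 in that of YTHDF1, -0.0019 to 0.18 in that of YTHDF2 and -0.031 to 0.084 in that of YTHDF3. In the labelled input it was -0.020 to 0.10 for the main peak of YTHDC1, -0.011 to 0.37 for peak 1 of YTHDF2 and -0.069 to 0.000043 for the main peak of YTHDF3. In the labelled IP it was -0.18 to 0.092 for the main peak of YTHDC1 and -0.11 to 0.011 for that of YTHDF1. For FPKM it was -0.091 to 0.020 for YTHDF1, -0.11 to 0.050 for YTHDC1 and -0.23 to 0.000061 for YTHDC2. Of the 14 peaks, depth is lowest in peak 1 of YTHDF1 (428 reads over 12 libraries, down to 6 in a library) and in peak 1 of YTHDF2 (1220).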
